A study of Mus musculus with 10 samples.

Results

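The leukocyte integrins described here are 8 genes, Itgam, Itgax, Itgal, Itgad, Itgb2, Itgae, Itga4 and Itgb7. They were taken by symbol through the Ensembl identifier in the GRCm38 annotation, and all 8 were found among the 53465 genes of the count tables. Their levels were measured by RNA sequencing in 5 whole lung samples of BALB/c mice given IL-33, an alarmin cytokine, through the nose. Another 5 samples came from BALB/c mice that the study design calls untreated. The dose was 1 µg of IL-33 (1 µg per 35 µL) once daily over 5 days, with lungs taken 24 hours after the final one. The sources used here do not give sex, age or any vehicle for the controls, so IL-33 and the instillation cannot be told apart. Reads assigned to genes numbered 7805175 to 13178798 per IL-33 library and 8935159 to 13767118 per control library. The share of records that aligned to several places was 19.97% to 22.8% in IL-33 libraries and 14.9995% to 16.2% in control libraries, and the share outside genes 11.4% to 13.7% in IL-33 libraries and 10.4% to 11.1% in control libraries, both without overlap, and their part in the results was not tested. Genes that mark lung epithelium were abundant in every library, with a summed level of 6 genes of 23486 to 26225 reads per 1000000 counted reads (CPM) in IL-33 lungs and 31128 to 35033 CPM in control lungs.

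Integrins are cell surface receptors built from 1 alpha and 1 beta chain, and an alpha chain reaches the surface only together with its partner. The beta chain encoded by Itgb2 (CD18) is restricted to leukocytes and pairs with the alpha chains of Itgal (CD11a, giving LFA-1), Itgam (CD11b, giving Mac-1 or complement receptor CR3), Itgax (CD11c, giving complement receptor CR4) and Itgad (CD11d). The chain encoded by Itgb7 pairs with those of Itga4 (CD49d), in a receptor for gut and mucosal vessels, and Itgae (CD103), in a receptor for E-cadherin on epithelium; the Itga4 chain also pairs with that of Itgb1. In the lung Itgax marks alveolar macrophages and dendritic cells, Itgam monocytes, neutrophils, eosinophils and many recruited macrophages, and Itgae some dendritic cells and tissue lymphocytes. Because whole lung was sequenced, more cells of a type and more RNA per cell cannot be told apart.

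All 7 members with enough reads to be tested were higher in IL-33 lungs, by 1.94-fold for Itgb2 to 7.42-fold for Itgb7. The 8th, Itgad, had 0 to 5 reads in any library and was not tested. The edgeR quasi-likelihood test was run on 15695 genes with p-values adjusted after Benjamini and Hochberg. Of them 69.9% came under 0.05 in either direction, 35.1% as higher and 34.8% as lower. At least 2-fold higher passed 14.5% of them, against 6 of the 8 members. In all 7 tested members the groups did not overlap, which held for 56.1% of tested genes. Log2 fold changes below are IL-33 over control, with the SE taken from log2(CPM + 0.1) over 5 and 5 libraries.

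**Figure D1:**
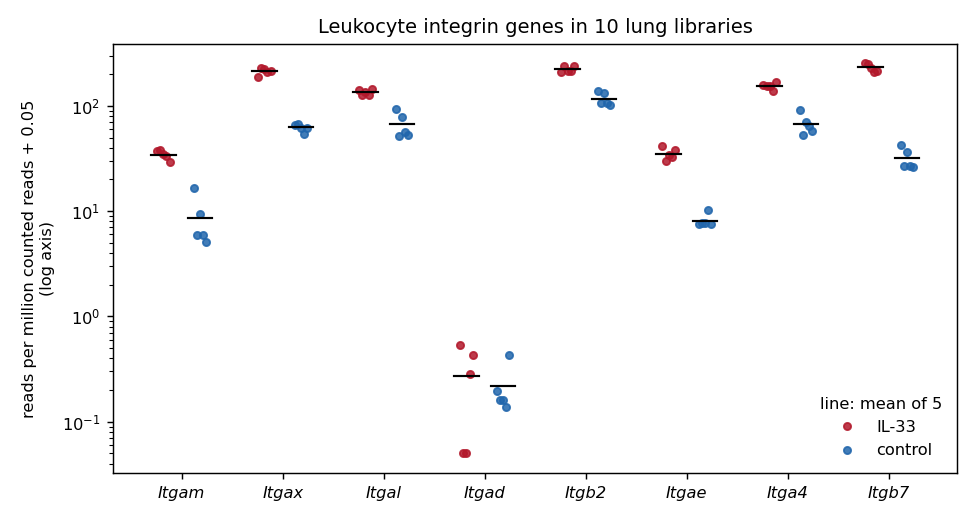
Level of each leukocyte integrin gene in each library, in CPM plus 0.05 on a log axis, with IL-33 libraries in red, control libraries in blue and a line at the mean of 5. The IL-33 points lie above all control points for every gene except Itgad, whose points lie below 0.5 CPM in both groups and overlap.

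The 4 alpha chain genes of the Itgb2 family lie on mouse chromosome 7. In GRCm38, Itgam (ENSMUSG00000030786, chr7:128062640-128118491), Itgax (ENSMUSG00000030789, chr7:128129547-128150657) and Itgad (ENSMUSG00000070369, chr7:128154376-128223816) follow each other on the plus strand within 161 kb, with gaps of 11.1 kb and 3.72 kb, and Itgal (ENSMUSG00000030830, chr7:127296260-127335138) lies 728 kb before Itgam. The coding sequences of Itgax and Itgad were the most alike of the 15 alpha pairs, with identical bases over 73.0% of the longer one, followed by Itgam with Itgax at 68.3% and Itgam with Itgad at 66.7%. Pairs that included Itga4 held 50.7% to 52.6%, and the pair of beta chains 61.2%. The longest stretch without a difference between Itgax and Itgad ran over 188 bases. It is shown in capitals with 10 flanking bases on each side, because a read that falls inside it cannot be assigned to either gene by its sequence. It occupies bases 1201 to 1388 of the Itgax coding sequence and 1324 to 1511 of the Itgad coding sequence, in the GENCODE M21 transcripts.
Itgax: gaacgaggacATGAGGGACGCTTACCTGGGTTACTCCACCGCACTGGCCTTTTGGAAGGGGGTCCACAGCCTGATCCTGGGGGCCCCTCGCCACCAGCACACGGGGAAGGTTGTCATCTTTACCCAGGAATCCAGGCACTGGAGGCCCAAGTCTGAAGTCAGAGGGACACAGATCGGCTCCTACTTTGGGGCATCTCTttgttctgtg
Itgad: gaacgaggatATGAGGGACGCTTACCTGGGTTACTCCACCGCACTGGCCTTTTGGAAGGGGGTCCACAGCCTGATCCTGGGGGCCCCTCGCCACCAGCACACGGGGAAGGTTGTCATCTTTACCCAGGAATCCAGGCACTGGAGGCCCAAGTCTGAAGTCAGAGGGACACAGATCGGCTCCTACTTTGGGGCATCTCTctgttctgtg
Of all 75-base windows of the Itgax transcripts 5.01% also occurred in Itgad, and of the Itgad windows 12.2% occurred in Itgax or another gene. Itgal, Itgae and Itgb7 had no such shared window, and Itgb2 had 7 of 3339.

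Itgam, which encodes the CD11b chain of monocytes, granulocytes and recruited macrophages, stood at 36.9, 38.1, 34.6, 33.5 and 29.0 CPM in the 5 IL-33 libraries, against 16.4, 5.94, 9.29, 5.95 and 5.08 CPM in the 5 control libraries. Every IL-33 library lay above every control library, and control 1 was the highest control. The means were 34.4 ± 3.52 CPM in IL-33 lungs and 8.53 ± 4.69 CPM in control lungs (SD, n = 5 each), a log2 fold change of 2.01 ± 0.31 with an adjusted p of 1.36e-05 by edgeR's quasi-likelihood test. Without control 1 the log2 fold change was 2.40.

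The level of Itgam itself is uncertain. The gene model Gm49368 (chr7:128062683-128128160, plus strand) covers 3450 of the 5024 exonic bases of Itgam, or 68.7%, on the same strand, and 65.2% of the 75-base windows of Itgam occur in it. Gm49368 is listed in the count tables with 4 reads over the 10 libraries, against 2286 for Itgam. The sources used here do not say how a read that fits both genes was counted. At 4 reads for Gm49368, such reads were evidently not credited to both genes. Where they are set aside, the 1574 exonic bases outside Gm49368 are the ones that can be counted. In that case the CPM of Itgam and its level over the whole exonic length are too low. Levels of Itgam per length are therefore given below for both lengths.

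Itgax, the CD11c chain of alveolar macrophages and dendritic cells, stood at 186, 229.8, 224.5, 209.7 and 215 CPM in IL-33 libraries, against 66.2, 67.3, 61.8, 54.5 and 62.1 CPM in control libraries. The controls lay close together and the lowest IL-33 library was far above the highest of them. The means of 213 ± 16.9 CPM in IL-33 lungs and 62.4 ± 5.03 CPM in control lungs gave a log2 fold change of 1.79 ± 0.08 (edgeR quasi-likelihood adjusted p = 2.23e-09).

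Itgal, the CD11a chain of LFA-1, which lymphocytes and most other leukocytes carry for binding ICAM proteins, had 142.5, 126, 135, 126 and 145.5 CPM in IL-33 libraries, against 93.8, 51.2, 78.7, 55.9 and 53.3 CPM in control libraries. Controls 1 and 3 stood above the other controls, and all 5 stayed below the IL-33 libraries. The log2 fold change was 1.04 ± 0.18, with means of 135 ± 9.18 CPM in IL-33 lungs and 66.6 ± 18.8 CPM in control lungs (edgeR quasi-likelihood adjusted p = 3.58e-05).

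Itgad, the CD11d chain, had 5, 0, 0, 3 and 5 reads in IL-33 libraries, 13 in all, and 2, 1, 1, 1 and 4 reads in control libraries, 9 in all. A count of 3 reads stands for 0.218 to 0.384 CPM in a library. At this depth only a large difference in Itgad could have been seen, and no fold is given. Itgax, which shares the stretch of 188 bases and ends 3.72 kb before Itgad, stood at 54.5 to 229.8 CPM. Whether any of the Itgad reads came from Itgax was not tested.

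Itgb2 (ENSMUSG00000000290, chr10:77530252-77565708, plus strand), the shared CD18 chain, had 211, 241, 213, 216 and 238 CPM in IL-33 libraries, against 138, 106, 132, 105 and 102.5 CPM in control libraries. All IL-33 libraries were above the controls, and controls 1 and 3 were again the highest controls. Its log2 fold change of 0.96 ± 0.10 was the smallest of the 7 tested members (224 ± 14.5 CPM in IL-33 lungs and 117 ± 16.9 CPM in control lungs, SD, n = 5 each; edgeR quasi-likelihood adjusted p = 1.19e-06).

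Itgb7 (ENSMUSG00000001281, chr15:102215995-102231944, minus strand), the beta chain shared by the CD103 and CD49d receptors, had 252.4, 251, 231, 210.0 and 214 CPM in IL-33 libraries, against 42.7, 26.6, 36.15, 26.9 and 26.0 CPM in control libraries. The lowest IL-33 library was far above the highest control. With means of 232 ± 19.9 CPM in IL-33 lungs and 31.7 ± 7.46 CPM in control lungs it had the largest change of the members, a log2 fold change of 2.89 ± 0.15 (edgeR quasi-likelihood adjusted p = 4.94e-09). Of all tested genes 2.61% had a larger log2 fold change than Itgb7, and 15.5% a larger one than Itgb2.

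Itgae (ENSMUSG00000005947, chr11:73090583-73147446, plus strand), the CD103 chain, stood at 41.5, 29.7, 34.3, 32.7 and 37.8 CPM in IL-33 libraries, against 7.48, 7.695, 7.61, 10.15 and 7.475 CPM in control libraries. Of the controls 4 were nearly equal and control 4 stood above them, below all IL-33 libraries. The log2 fold change was 2.14 ± 0.12, with means of 35.2 ± 4.56 CPM in IL-33 lungs and 8.08 ± 1.16 CPM in control lungs (edgeR quasi-likelihood adjusted p = 1.35e-08).

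Itga4 (ENSMUSG00000027009, chr2:79255426-79333123, plus strand), the CD49d chain, which binds VCAM1 and fibronectin with the Itgb1 chain and MAdCAM-1 with the Itgb7 chain, had 159, 154, 153, 138 and 169.8 CPM in IL-33 libraries, against 90.7, 52.4, 69.5, 65.0 and 58.1 CPM in control libraries. Its groups did not overlap, and control 1 was the highest control. The log2 fold change of 1.23 ± 0.14 came from means of 155 ± 11.4 CPM in IL-33 lungs and 67.1 ± 14.7 CPM in control lungs (edgeR quasi-likelihood adjusted p = 1.42e-06). On the opposite strand the gene Cerkl overlaps 8.04% of the exonic bases of Itga4, and it had 70 reads over all 10 libraries.

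Divided by exonic length, as CPM per kilobase of all annotated exons, the order of the members was not the same in the groups. In IL-33 lungs it ran from Itgb7 at 83.7 ± 7.20 CPM per kilobase through Itgb2 at 73.3 ± 4.75, Itgax at 44.3 ± 3.53, Itgal at 20.5 ± 1.40, Itga4 at 11.1 ± 0.82 and Itgae at 7.69 ± 0.99 to Itgam at 6.85 ± 0.70 (SD, n = 5). In control lungs Itgb2 came first at 38.3 ± 5.54 CPM per kilobase, then Itgax at 13.0 ± 1.05, Itgb7 at 11.4 ± 2.69, Itgal at 10.1 ± 2.87, Itga4 at 4.80 ± 1.05, Itgae at 1.76 ± 0.25 and Itgam at 1.70 ± 0.93. The ranges of Itgb7 and Itgb2 overlapped in IL-33 lungs, as did those of Itgae and Itgam, and in control lungs those of Itgax, Itgb7 and Itgal overlapped, as did those of Itgae and Itgam. Over the exons outside Gm49368 alone, Itgam came to 21.9 ± 2.24 CPM per kilobase in IL-33 lungs and 5.42 ± 2.98 in control lungs, so its place in this order depends on the length used. Exonic length counts every annotated exon, such as the 13978 bases of Itga4, whether or not the lung uses it.

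**Figure D2:**
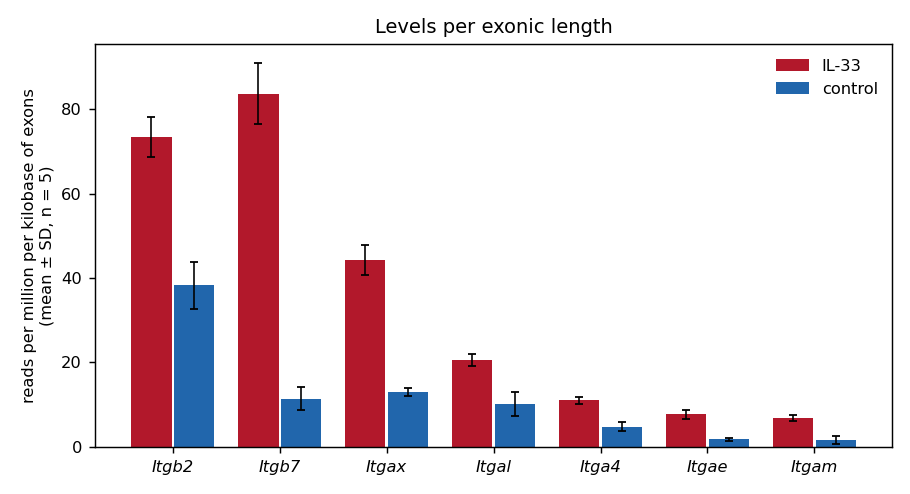
Level of the 7 tested members in CPM per kilobase of annotated exons, with bars for the mean and error bars for the SD of 5 IL-33 libraries (red) and 5 control libraries (blue). Itgb2 stands highest in control lungs at 38.3, while Itgb7 and Itgb2 stand at 83.7 and 73.3 in IL-33 lungs.

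Levels of the Itgb2 partners per kilobase summed to 0.981 ± 0.051 of the Itgb2 level in IL-33 lungs and 0.648 ± 0.034 in control lungs (SD, n = 5 each), with no overlap between groups. Within that sum Itgax held 61.7% ± 2.75 in IL-33 lungs and 53.0% ± 7.03 in control lungs, and Itgal held 28.7% ± 2.51 in IL-33 lungs and 40.3% ± 5.07 in control lungs. Itgam held 9.56% ± 1.08 in IL-33 lungs and 6.53% ± 2.34 in control lungs by its whole exonic length, or 25.2% ± 2.37 in IL-33 lungs and 18.04% ± 5.50 in control lungs over its exons outside Gm49368. With that shorter length the partners summed to 1.19 ± 0.07 of the Itgb2 level in IL-33 lungs and 0.741 ± 0.064 in control lungs, Itgax held 51.1% ± 2.75 in IL-33 lungs and 46.7% ± 7.91 in control lungs, and Itgal held 23.7% ± 2.13 in IL-33 lungs and 35.2% ± 3.32 in control lungs. Levels of Itgae and Itga4 summed to 0.225 ± 0.025 of the Itgb7 level in IL-33 lungs and 0.585 ± 0.080 in control lungs. These sums are a description and were not tested.

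Ratios of read counts within a library do not depend on the scaling between libraries, and 15 of them were tested with two-sided exact permutation tests over the 5 and 5 libraries, with Benjamini-Hochberg adjustment over the 15. The smallest p such a test allows is 0.00794, and 11 of the 15 passed an adjusted p of 0.05. How often ratios of other gene pairs pass was not measured, and the levels of 56.1% of all tested genes did not overlap between groups. The count of 11 is therefore not read as a trait of the members. The alpha chains of Itgb2 did not move alike. The log2 ratio of Itgam to Itgb2 was -2.70 ± 0.20 in IL-33 lungs and -3.89 ± 0.49 in control lungs (SD, n = 5 each), higher in 5 of 5 IL-33 libraries than in any control (exact permutation p = 0.00794, adjusted p = 0.0132). That of Itgax to Itgb2 was -0.07 ± 0.10 in IL-33 lungs and -0.90 ± 0.20 in control lungs, with the same exact p and adjusted p. Itgal kept close to Itgb2, with a log2 ratio of -0.73 ± 0.14 in IL-33 lungs and -0.84 ± 0.19 in control lungs, a difference of 0.11 that did not pass (exact permutation p = 0.317, adjusted p = 0.34). Once the dependence of each library on gene length and GC was taken out, the difference for Itgal was 0.48 and passed (exact permutation, adjusted p = 0.0132).

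On the Itgb7 side both alpha chains were lower relative to the beta chain in IL-33 lungs. The log2 ratio of Itga4 to Itgb7 was -0.58 ± 0.15 in IL-33 lungs and 1.09 ± 0.13 in control lungs, so Itga4 reads were fewer than Itgb7 reads in every IL-33 library and more numerous in every control (exact permutation p = 0.00794, adjusted p = 0.0132). For Itgae to Itgb7 it was -2.72 ± 0.22 in IL-33 lungs and -1.94 ± 0.43 in control lungs, with 4 of 5 IL-33 libraries below all controls (exact permutation p = 0.0159, adjusted p = 0.0238). The beta chains also moved unequally. The log2 ratio of Itgb7 to Itgb2 was 0.05 ± 0.16 in IL-33 lungs and -1.90 ± 0.12 in control lungs, a difference of 1.95 (exact permutation p = 0.00794, adjusted p = 0.0132). Per kilobase Itgb7 stood at 1.14 ± 0.12 times Itgb2 in IL-33 lungs, above it in 4 of 5 libraries, and at 0.296 ± 0.027 times Itgb2 in control lungs, above it in 0 of 5.

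**Figure D3:**
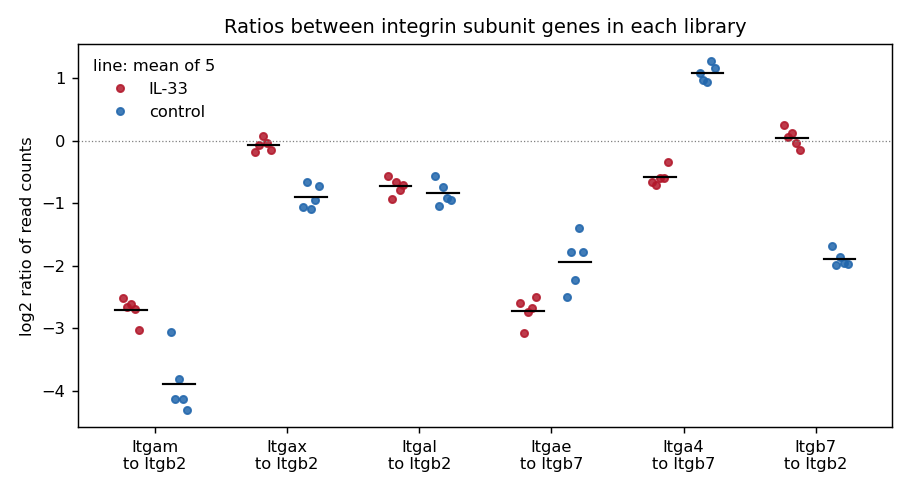
Log2 ratio of read counts between subunit genes in each library, with IL-33 libraries in red, control libraries in blue and a line at the mean of 5. The ratio of Itga4 to Itgb7 lies below 0 in all IL-33 libraries and above 0 in all controls, while the points for Itgal to Itgb2 overlap between groups.

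The members were set beside genes that most leukocytes use. Of 10 pan-leukocyte genes all 10 rose, against 35.1% of all tested genes, with a median log2 fold change of 1.61. Their summed level was 3352 to 3996 CPM in IL-33 lungs and 938 to 1562 CPM in control lungs. Their changes were spread widely. Ptprc, which encodes the common leukocyte antigen CD45, had a log2 fold change of 0.87 ± 0.17, Lcp1, an actin bundling protein and the most abundant of the list, 1.13 ± 0.10, Rac2, a leukocyte GTPase, 2.46 ± 0.24, Coro1a, an actin regulator, 2.67 ± 0.23, and Cd52, a surface glycoprotein, 3.54 ± 0.26, each with an edgeR quasi-likelihood adjusted p of 9.1e-05 or less. What the members show relative to leukocyte genes therefore depends on the gene taken.

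Against Ptprc, the log2 ratio of Itgb7 was higher by 2.01 in IL-33 lungs, that of Itgam by 1.25, Itgae by 1.23, Itgax by 0.89 and Itga4 by 0.35 (exact permutation p = 0.00794 and adjusted p = 0.0132 for each). The log2 ratio of Itgal to Ptprc was higher by 0.18 (exact permutation p = 0.0238, adjusted p = 0.0325), a call lost without IL-33 library 2, control 4 or control 5, at adjusted p = 0.0541 each time, and with the length and GC trend removed, at a difference of 0.0752 (exact permutation, adjusted p = 0.255). Itgb2 differed by 0.07, which did not pass (exact permutation p = 0.595, adjusted p = 0.595). With each library left out it ranged from -0.01 to 0.13, and with the length and GC trend removed it turned to -0.41 and passed as lower (exact permutation, adjusted p = 0.0298), so no direction is given for Itgb2 against Ptprc. Against the mean log2 count of all 10 pan-leukocyte genes only Itgb7 kept both the direction and the call it had against Ptprc. Itgb7 remained higher by 1.00 ± 0.04 (SE), with a log2 ratio of -0.51 ± 0.02 in IL-33 lungs and -1.51 ± 0.08 in control lungs (SD, n = 5 each). Itgal was then lower by 0.84, Itga4 lower by 0.67 and Itgb2 lower by 0.95 (exact permutation p = 0.00794, adjusted p = 0.0132 for each of these 4 genes). Itgam at 0.24, Itgae at 0.21 and Itgax at -0.13 did not pass (exact permutation, adjusted p = 0.216, 0.417 and 0.516). These ratios to the list were not repeated with the length and GC trend removed. The list runs from Cd52, with 1187 exonic bases, to Ptprc, with 18313. With that trend removed the log2 fold change was 1.29 for Itgal, 1.55 for Itga4 and 0.85 for Itgb2, against 1.04, 1.23 and 0.96 in the main fit.

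**Figure D4:**
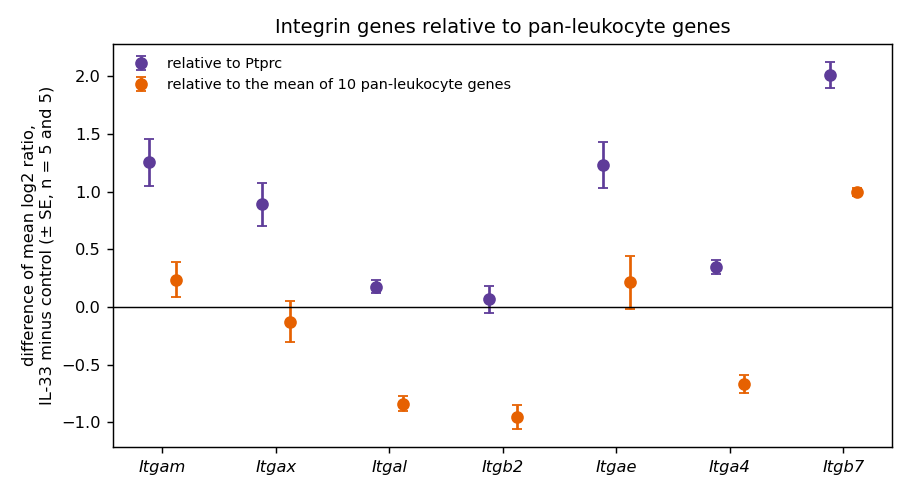
Difference between IL-33 and control lungs in the mean log2 ratio of each of the 7 tested integrin genes to Ptprc (purple) and to the mean of 10 pan-leukocyte genes (orange), with error bars for the SE over 5 and 5 libraries. Itgb7 is above 0 on both scales, at 2.01 and 1.00, while Itgal, Itga4 and Itgb2 are at or above 0 against Ptprc and below 0 against the list.

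Genes that mark the cell types known to carry these integrins differed between the groups as follows, and their part in the members' changes was not tested. Each sum is that of the listed genes in whole lung, whichever cells carry them. Other lung cells can carry a listed gene too, so no sum is read as an amount of the named cell type. Among all tested genes 35.1% passed as higher and 34.8% as lower. All 6 group 2 innate lymphoid cell markers rose, with a summed level of 529.6 to 716 CPM in IL-33 lungs and 23.2 to 29.99 CPM in control lungs. All 6 eosinophil markers rose (58.4 to 72.6 CPM in IL-33 lungs, 0.862 to 2.98 CPM in control lungs), with Prg3, a granule protein gene, at 0 reads in every control. Of 7 monocyte and recruited macrophage markers 6 rose and 0 fell (1077 to 1416 CPM in IL-33 lungs, 248 to 309 CPM in control lungs), and all 6 neutrophil markers rose (316 to 513 CPM in IL-33 lungs, 42.5 to 144 CPM in control lungs). Dendritic cell markers rose in 4 and fell in 2 of 6 cases (99.04 to 120.4 CPM in IL-33 lungs, 74.3 to 96.7 CPM in control lungs). The largest part of that sum in control lungs was Zbtb46, at 49.0 CPM, which fell to 36.6 CPM in IL-33 lungs. Alveolar macrophage markers rose in 2 and fell in 3 of 6 (411 to 501 CPM in IL-33 lungs, 350.4 to 425 CPM in control lungs). Most of the alveolar macrophage sum came from Car4, which averaged 256 CPM in IL-33 lungs and 242 CPM in control lungs and did not pass, but was called lower at -0.243 with the length and GC trend removed, and from Mrc1, which rose, while Fabp1, Marco and Siglecf fell. T cell markers rose in 4 and fell in 2 of 7 (94.1 to 134 CPM in IL-33 lungs, 47.9 to 93.0 CPM in control lungs), and 1 of the 4, Trac, a T cell receptor chain, turned to -0.0951 and did not pass with the length and GC trend removed. All 6 B and plasma cell markers rose (373 to 916 CPM in IL-33 lungs, 54.2 to 254 CPM in control lungs). Of 6 natural killer cell markers 0 passed by edgeR, DESeq2 or limma-voom, and 0 had an unadjusted edgeR p under 0.05, while 4 passed, as lower, with the length and GC trend removed (40.1 to 64.9 CPM in IL-33 lungs, 38.2 to 106 CPM in control lungs). Of 7 mast cell and basophil markers 3 were tested and 2 rose (10.97 to 15.5 CPM in IL-33 lungs, 3.24 to 6.27 CPM in control lungs). Control 1 had the highest summed pan-leukocyte level of the controls, 1562 CPM, and the highest Itgam, Itgal, Itga4, Itgb2 and Itgb7 levels of the controls.

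Integrin subunits outside the leukocyte group mostly went the other way. Of 18 other alpha and beta chain genes, all tested, 3 rose and 12 fell, against 35.1% and 34.8% of all tested genes. The median log2 fold change of the 18 was -0.66, against 1.79 over the 7 tested leukocyte integrins and -0.01 over all tested genes. Itgb1, the most abundant and the common beta chain of matrix-binding integrins, averaged 636 ± 53.2 CPM in IL-33 lungs and 1007 ± 38.9 CPM in control lungs (log2 fold change -0.64 ± 0.06). Itga8, a receptor chain for nephronectin and fibronectin, fell to 97.4 ± 29.7 CPM in IL-33 lungs, against 576 ± 48.8 CPM in control lungs (log2 fold change -2.55 ± 0.22). Itga6, a laminin receptor chain, had a log2 fold change of -1.31 ± 0.11. The exception was Itgb3, the beta chain of the vitronectin and platelet fibrinogen receptors, which averaged 201 ± 32.7 CPM in IL-33 lungs and 34.1 ± 6.15 CPM in control lungs, a log2 fold change of 2.58 ± 0.15, second only to Itgb7 among the 25 tested subunits. These 4 genes had edgeR quasi-likelihood adjusted p of 4.25e-06 or less. The alpha partners of Itgb3 gave log2 fold changes of 0.18 for Itga2b, which did not pass (adjusted p = 0.314), and -0.54 for Itgav, which did (edgeR quasi-likelihood adjusted p = 0.000659). Itga2b, Itgav and the genes Itga7 and Itgb8 below were named after their values were seen. The other rises were those of Itgb8 (0.96) and Itga7 (0.34), both with overlapping groups (edgeR quasi-likelihood adjusted p = 0.00218 and 0.015).

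**Figure D5:**
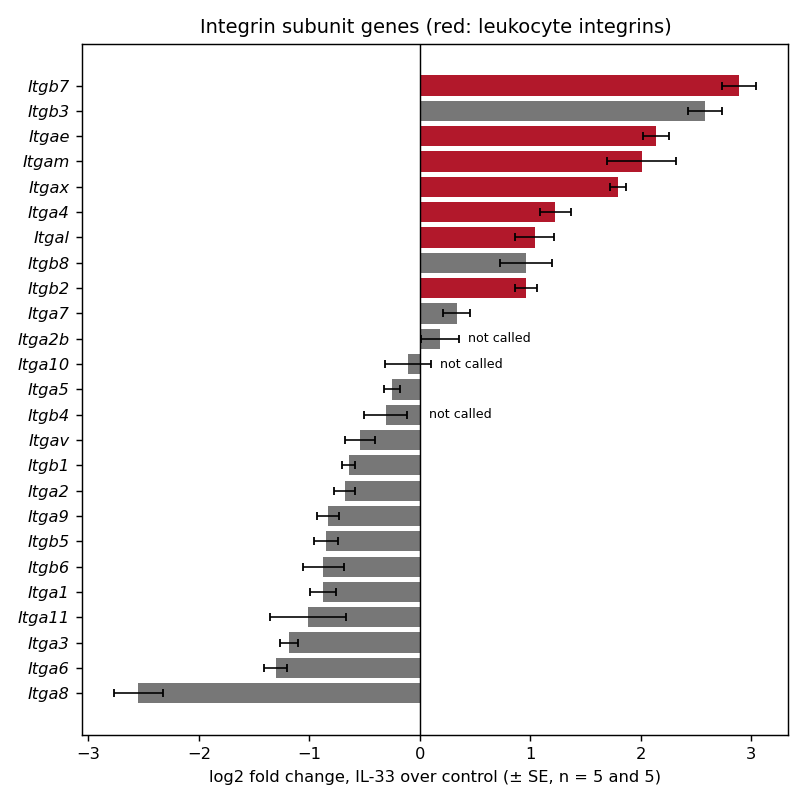
Log2 fold change, IL-33 over control, of 25 integrin subunit genes from edgeR's quasi-likelihood fit, with error bars for the SE over 5 and 5 libraries and the genes that did not pass an adjusted p of 0.05 marked. The leukocyte integrins (red) all lie above 0.9, and of the other subunits (grey) Itgb3 lies at 2.58 and Itga8 at -2.55.

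Genes of ligands and counter-receptors did not follow the members as a group. Of 17 such genes 12 were tested, of which 4 rose and 7 fell, against 35.1% and 34.8% of all tested genes. The median log2 fold change of the 12 was -0.34. C3, whose cleavage product iC3b binds Mac-1 and CR4, had the largest change and the highest mean over all 10 libraries, although Ager and Fn1 stood above it in control lungs, with 3918 ± 574 CPM in IL-33 lungs and 794 ± 77.3 CPM in control lungs (log2 fold change 2.32 ± 0.11, edgeR quasi-likelihood adjusted p = 5.09e-09). Thy1, a surface glycoprotein that binds Mac-1, had 2.06 ± 0.20 and Jam2, a junctional adhesion molecule of endothelium, -0.95 ± 0.15 (edgeR quasi-likelihood adjusted p = 3.41e-07 and 1.62e-05). The following were named after their values were seen. Icam1, the main ligand of LFA-1 and Mac-1, averaged 311 ± 30.4 CPM in IL-33 lungs and 465 ± 17.0 CPM in control lungs (log2 fold change -0.56 ± 0.07), and Icam2 had -0.48 ± 0.07. Vcam1, the vascular ligand of the Itga4 chain, had a log2 fold change of 0.47 ± 0.16, with overlapping groups, and Cdh1, the E-cadherin bound by the Itgae chain with that of Itgb7, -0.39 ± 0.04. These 4 passed edgeR's quasi-likelihood test at adjusted p of 0.00735 or less. Their estimated changes were smaller than 1.5-fold, so they could not pass a test against a 1.5-fold change. Madcam1, the mucosal vessel ligand of the Itga4 and Itgb7 chains, stayed at 0 to 0.445 CPM in IL-33 libraries and 0 to 0.11 CPM in control libraries and was not tested.

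Genes that switch integrins on, or link them to the cytoskeleton, did not move as a group either. Of 23 such genes, all tested, 13 rose and 6 fell, against 35.1% and 34.8% of all tested genes. The median log2 fold change of the 23 was 0.30. Skap1, an adaptor of T cells that couples the antigen receptor to LFA-1, averaged 64.2 ± 10.1 CPM in IL-33 lungs and 6.99 ± 1.38 CPM in control lungs (log2 fold change 3.21 ± 0.17), Fermt3, the kindlin of blood cells, had 1.83 ± 0.15, and Vav1, a leukocyte exchange factor, 1.71 ± 0.14 (edgeR quasi-likelihood adjusted p of 1.13e-07 or less for the 3). The following were named after their values were seen. The 6 that fell were Fermt2, the kindlin of most tissues, at -1.39 ± 0.08, Vcl, vinculin, at -1.25 ± 0.11, Tln2, talin 2, at -1.21 ± 0.11, Pxn, paxillin, at -0.77 ± 0.08, Tln1, talin 1, at -0.45 ± 0.09 and Rasgrp2, an exchange factor for Rap1 in platelets and leukocytes, at -0.41 ± 0.06 (edgeR quasi-likelihood adjusted p of 0.000402 or less). Widely expressed genes were also among those that rose, with Itgb1bp1, which binds the Itgb1 chain, at 1.02 ± 0.09, Sharpin, an inhibitor of integrin activation, at 0.42 ± 0.09 and Rap1b, a GTPase that switches integrins on, at 0.31 ± 0.07 (edgeR quasi-likelihood adjusted p of 0.00377 or less). Flna, filamin A and the most abundant of the list, had -0.03 ± 0.09 and did not pass (edgeR quasi-likelihood adjusted p = 0.771). With the length and GC trend removed Tln1, Rasgrp2 and Rap1b did not pass, and Flna stood at 0.32 and passed.

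The genes whose pattern over the 10 libraries was nearest to each member were found by the root mean square difference of log2(CPM + 0.1), each gene taken relative to its own control mean, among 11984 tested genes at a mean of 5 CPM or more. Nearest to Itgb2 were Csf2ra, the alpha chain of the GM-CSF receptor, at 0.075 log2 units, Rgs19, a regulator of G protein signalling, at 0.086, and Sp140, a nuclear body protein of leukocytes, at 0.093. Runx3, a transcription factor of lymphocytes, was nearest to Itgb7 at 0.106, with 58.6 ± 7.94 CPM in IL-33 lungs and 8.09 ± 2.35 CPM in control lungs. Evi2a was nearest to Itgax at 0.061 and Limd2 to Itga4 at 0.092. Sh2b2, an adaptor protein, was nearest to Itgal at 0.093, Plac8 to Itgam at 0.175 and Bora, a mitotic regulator, to Itgae at 0.198. Between members the smallest differences were those of Itgal with Itga4 at 0.159, Itgal with Itgb2 at 0.169 and Itga4 with Itgb2 at 0.235, and the largest was that of Itgb2 with Itgb7 at 1.38. Since all these genes differed between the groups, the measure follows mainly the size of that difference.

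Promoter sequences of 4 members were at hand, from RefSeq on GRCm38.p6, and the 150 bases before the transcript start are shown for them. Any part of these promoters in the members' changes was not tested. Capitals mark the core GAGGAA of the motif of PU.1, a myeloid and lymphoid transcription factor, on either strand. The core or its reverse complement TTCCTC occurs in 23.2% (7639) of 32851 promoters over the 250 bases before the start.
Itgam, chr7:128062490-128062639, plus strand: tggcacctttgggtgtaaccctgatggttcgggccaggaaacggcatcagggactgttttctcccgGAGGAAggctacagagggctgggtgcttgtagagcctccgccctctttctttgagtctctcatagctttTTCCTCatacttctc
Itgax, chr7:128129400-128129549, plus strand: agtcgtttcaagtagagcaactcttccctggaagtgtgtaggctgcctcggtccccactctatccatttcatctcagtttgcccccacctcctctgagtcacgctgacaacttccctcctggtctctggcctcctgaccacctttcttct
Itga4, chr2:79255276-79255425, plus strand: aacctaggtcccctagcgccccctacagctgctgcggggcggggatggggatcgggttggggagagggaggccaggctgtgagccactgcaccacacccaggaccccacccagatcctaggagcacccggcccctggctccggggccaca
Itgb7, chr15:102231936-102232085, minus strand: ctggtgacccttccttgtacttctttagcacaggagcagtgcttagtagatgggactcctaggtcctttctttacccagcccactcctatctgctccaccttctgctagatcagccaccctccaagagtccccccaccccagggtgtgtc
Of these 4 promoters only that of Itgam held the core, at 84 bases before the start and, on the other strand, at 15 bases before it. The RUNX core TGTGGT, present in 14.0% of promoters, occurred in that of Itga4, and the GC box core GGGCGG, present in 32.7%, in those of Itgam and Itga4. No TATAAA, present in 12.4%, was found. No motif overlapped another, and a match or its absence in this window is only a statement about its letters.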

How the data were processed

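Lung RNA of 10 mouse samples was sequenced from polyA-selected, stranded libraries, per the labels' protocols. The submitters' processing notes name FastQC 0.11.6, MultiQC 1.6, STAR 2.5.4b, HTSeq 0.9.1 and GRCm38. The authors deposited 1 table of unnormalized read counts per library. The sources used here do not give the annotation release or the strand and overlap settings of the counting. Of 53465 genes 53360 matched GENCODE M21, from which lengths, places and transcripts came. Lines for reads outside single genes were not used. Records outside genes or aligned to several places were a larger share in every IL-33 library than in any control, as the report gives, and 0.862% to 0.945% were ambiguous between genes.

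The labels number the samples of a group without naming animals, so p-values measure the spread between these samples. Libraries of a group differed beyond sampling noise (5.09 to 27.6 as chi-square over its degrees of freedom), and each counts as 1 sample. The 10 libraries were fitted together by group in edgeR 4.0.16 under R 4.3.3, using filterByExpr, TMM normalization (factors 0.969 to 1.03) and the quasi-likelihood test at an adjusted p of 0.05. CPM are reads per 1000000 counted in genes. Ratios are log2((count + 1)/(count + 1)). Alternatives were DESeq2 1.42.0 and its size factors, limma 3.58.1 (voom), library size alone, other low-count filters, a test against a 1.5-fold change, scaling that leaves out the top 50 genes by abundance, the replicate number as a block, offsets that remove each library's spline trend on exonic length and GC content, and leaving out each library. For ratios a pseudocount of 0.5 and the pan-leukocyte list were tried. In a simulation of IL-33 against control (15561 genes, with 200 altered), the fit found 73.1% of the 1.5-fold changes and 98.5% of those of 2-fold. False calls made up 3.21%. The altered genes were drawn from those with higher mean counts, in both directions, and every gene had the same dispersion. These rates therefore do not cover genes with few reads or data in which most genes differ, as here. Coding sequences were aligned globally with Biopython 1.88. Tables were handled in Python 3.11.15.

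The members, gene lists and tests were chosen with earlier results of these data known. Named were the members, of each of 4 gene lists the most abundant gene and the 3 called genes that changed most (mean of at least 1 CPM), and the genes nearest in pattern (3 for Itgb2, 1 for each other). Counting error alone is covered by the floor of 3 reads.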

Additional observations from a re-analysis of the deposited data

Results flagged for a closer look

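Of 94 groups of 5 values checked, 7 had 1 library whose gap to the others exceeded Dixon's limit of 0.71 of the group's range, and chance flags about 1 in 20. Itgae in control 4 stood at 10.15 CPM, against 7.475 to 7.695 CPM in the other controls, and the log2 fold change of Itgae was between 2.07 and 2.23 under all 20 alternatives. Itgad in control 5 stood at 0.383 CPM, which is 4 reads, against 0.0875 to 0.145 CPM in the others, and its log2 ratio to Itgb2 at -7.74, against -9.31 to -8.92. The log2 ratio of Itgb2 to Ptprc in IL-33 library 2 was -0.13, against -0.60 to -0.46 in the other IL-33 libraries. Plac8, the nearest gene to Itgam, stood at 75.9 CPM in IL-33 library 1, against 70.7 to 72.2 CPM in the others, and at 40.8 CPM in control 1, against 11.8 to 15.4 CPM in the others. Sp140 stood at 21.4 CPM in control 1, against 15.4 to 17.0 CPM.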

How the results depend on the processing

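The 7 tested members kept their direction and passed under all 20 alternatives, with log2 fold changes of 1.85 to 2.40 for Itgam, 1.74 to 1.91 for Itgax, 0.94 to 1.29 for Itgal, 2.07 to 2.23 for Itgae, 1.13 to 1.55 for Itga4, 0.85 to 1.01 for Itgb2 and 2.81 to 3.01 for Itgb7. The count of 10975 genes called was 4741 in the test against a 1.5-fold change, by that test's construction, and 10516 to 11089 with each library left out. Of ratios, with the length and GC trend removed Itgal to Itgb2 differed by 0.48, Itgal to Ptprc by 0.0752, which ended the call (exact permutation, adjusted p = 0.255), and Itgb2 to Ptprc by -0.41, which then passed as lower (adjusted p = 0.0298), and with the pan-leukocyte list in place of Ptprc the differences were 0.24 for Itgam, -0.13 for Itgax, -0.84 for Itgal, -1.82 for Itgad on 0 to 5 reads a library, 0.21 for Itgae, -0.67 for Itga4 and -0.95 for Itgb2; the cause was not tested. The difference of -1.82 for Itgad passed (exact permutation, adjusted p = 0.0132), but on so few reads it is not read as a change of Itgad. With each library left out Itgal to Ptprc ranged from 0.15 to 0.21. Flna turned to 0.32, and the markers Car4 to -0.243 and Trac to -0.0951, with the length and GC trend removed. The numbers shared by IL-33 and control libraries were not treated as pairs, and whether they pair was not settled. Correlations of same-numbered deviations were -0.069 to 0.232, over 0.1 in 3 of 5, and best with the own number in 3 of 5. With the number as a block 11122 genes were called. For ratios the block gives 0.0625 as its smallest p, so it was used for values only.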
